A study of Mus musculus with 8 samples.

Results

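The genes described here encode the subunits of cohesin. They were taken by name from a list of 9 subunits, the meiotic subunits *Smc1b*, *Rec8*, *Stag3* and *Rad21l* and the somatic subunits *Smc1a*, *Smc3*, *Rad21*, *Stag1* and *Stag2*, and matched to array probes through RefSeq accessions, with no measured value in the rule. The list itself was chosen with earlier results of these data known. Of these 9 genes, 8 had a probe, among 19751 genes named on the array. *Rad21l* had no matching probe.

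Cohesin is a protein ring built from a pair of SMC ATPases, closed by a kleisin subunit and bound by a STAG protein. It holds sister chromatids together from replication until anaphase, and in interphase it folds chromatin into loops that are anchored by CTCF. Meiotic cells build additional rings in which SMC1B stands in for SMC1A, REC8 or RAD21L for RAD21, and STAG3 for STAG1 or STAG2, and these rings form the core of the meiotic chromosome axis.

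The arrays came from VV3 ESCs, a male mouse ESC line with a *Vasa*::Venus transgene that reports activity of the germ-cell gene *Vasa* (*Ddx4*), grown on inactivated STO feeder cells. Control ESCs received the non-silencing AllStars siRNA (4 samples), and *L3mbtl2*-KD ESCs received siRNA against *L3mbtl2* (4 samples), which encodes a subunit of the Polycomb complex PCGF6-PRC1. The methods describe purification of *Vasa*-positive cells by FACS. Where they set out the comparison, they name *Vasa*-positive cells for the knockdown and no sort for control ESCs. Effects of such a sort and of the siRNA, also on *Ddx4*, cannot be told apart. The labels call the 4 samples of each group biological replicates.

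Each sample was hybridised to its own single-colour Agilent array. Between 59.5 and 66.6% of the spots of an array were well above background, and the number of arrays limits the precision. Values are normalized log2 intensities, that is, log2 of the background-subtracted intensity minus the 75th percentile of the same array. A value of 0 therefore lies at that percentile, and since brightness also depends on the probe, levels of different genes are not compared. Probes that stood well above background on all arrays of a group were tested with limma on group alone, without regard to the replicate number. This covered 13653 genes. A gene passed when its brightest probe had a Benjamini-Hochberg adjusted p under 0.05, adjusted over all probes tested. Separately, a gene was called when any of its probes tested had both an adjusted p under 0.05 and a change of more than 2-fold, where the methods give the rule of any single probe without a value and the figure legends give 2-fold. Each of 2 slides held 2 arrays of each group, with control samples at positions 1 and 3 and *L3mbtl2*-KD samples at positions 2 and 4, so position on the slide and siRNA cannot be told apart.

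The siRNA target was read in every sample first. *L3mbtl2* was at 0.27, -0.18, -0.21 and -0.31 in control replicates 1 to 4 and at -1.45, -1.26, -1.58 and -1.73 in *L3mbtl2*-KD replicates 1 to 4. Every *L3mbtl2*-KD sample lay below every control sample, and the log2 fold change was -1.40 within each slide. The reporter's own gene *Ddx4* was at 0.86, 0.99, 0.99 and 0.85 in control ESCs and at 3.87, 3.62, 3.70 and 3.82 in *L3mbtl2*-KD ESCs, again with no overlap. The label of ESCs was checked against 10 ESC markers, which include *Pou5f1*, *Nanog*, *Sox2* and *Esrrb*. All 10 were tested, and 1 of them, *Klf4*, passed the threshold (log2 fold change -0.70, limma adjusted p = 0.0274). *Klf4* did not pass without control replicate 3 (limma adjusted p = 0.0692), *L3mbtl2*-KD replicate 3 (0.068) or *L3mbtl2*-KD replicate 4 (0.0709), nor without the filter on dim probes (0.0673), in the adjusted one-way test (0.0641), on the first slide alone (0.361) or on the second (0.052). *Nanog* had the largest log2 fold change of the list, -1.32, and did not pass (limma adjusted p = 0.0962), with groups that overlapped and values of -2.11 on the first slide and -0.52 on the second. After normexp background correction *Nanog* was at -0.69, and the change of *Klf4*, -0.74, was larger. Of the 10 markers, 7 had a negative log2 fold change, 3 of them at an unadjusted p under 0.05 in limma. Over all 13653 genes tested, 2566 were lower and 2306 higher at that p. The median log2 fold change of the list was -0.20, against -0.01 over all genes tested.

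Both meiotic subunits that could be tested, *Smc1b* and *Rec8*, were higher in *L3mbtl2*-KD ESCs, *Stag3* stayed below background in both groups, and of the 5 somatic subunits only *Stag2* passed the threshold, with a small fall. In all, 3 of the 7 subunits tested passed, 2 higher and 1 lower. *Rad21* joined them with a fall when the replicate number was a block (-0.15, limma adjusted p = 0.0484). Among the 13653 genes tested, 20.1% passed, 9.35% higher and 10.8% lower in *L3mbtl2*-KD ESCs. With the replicate number as a block, 3027 genes passed with a rise and 3255 with a fall, in place of 1277 and 1472. Within the first slide alone, 0 genes of the whole array passed in limma, and 897 were higher and 1190 lower at an unadjusted p under 0.05. *Rec8* alone met the 2-fold rule for a rise, and *Stag2* fell too little to meet it. That rule was met by 2.49% of genes tested for a rise (340 genes) and 3.21% for a fall (438 genes). Rises made up 43.7% of these calls, and 55.0% after normexp background correction. The groups did not overlap for 3 of the 7 subunits, as for 26.4% of all genes tested. The median log2 fold change was 1.03 over the 2 meiotic subunits and -0.07 over the 5 somatic subunits. *Smc1b*, *Rec8* and *Stag2* kept their direction after normexp background correction and after quantile normalization. They did so in the deposited log2 table too, but that table matches the values used here once each probe is centred, so it is no separate check. In bulk samples, fewer cells of a type and less RNA per cell cannot be told apart.

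**Figure D1:**
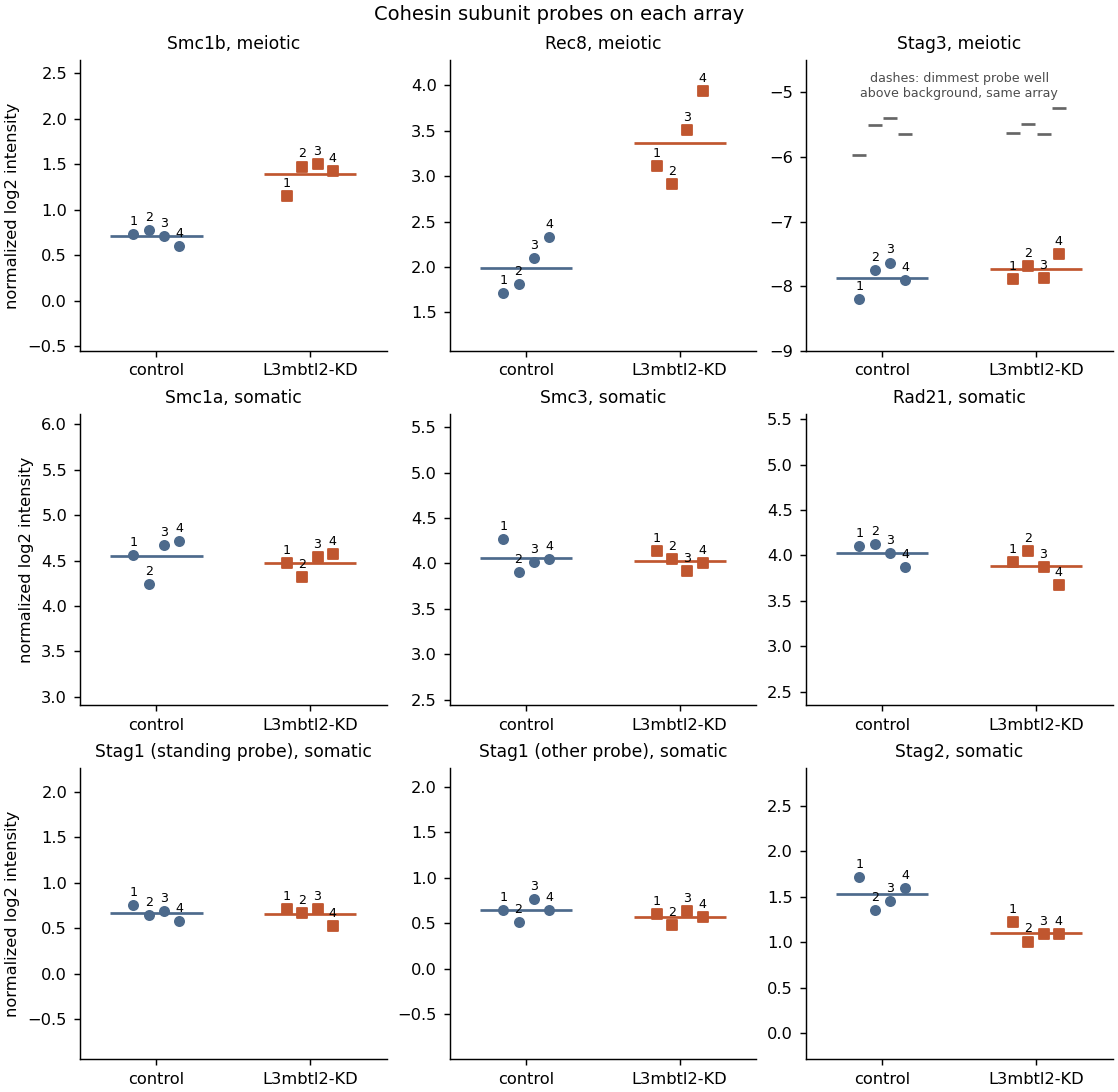
Normalized log2 intensity (vertical axis, each panel spanning its own range) of the 9 cohesin subunit probes on each of the 8 arrays, with circles for control ESCs, squares for *L3mbtl2*-KD ESCs, digits for replicate numbers and lines for group means. The squares lie above all circles for *Smc1b* (means 0.71 and 1.39) and *Rec8* (1.99 and 3.37) and below them for *Stag2* (1.53 and 1.10), and grey dashes in the *Stag3* panel mark the dimmest probe well above background on each array.

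*Smc1b* (NM_080470) encodes the meiotic SMC subunit that pairs with SMC3. It was at 0.73, 0.78, 0.71 and 0.60 in control replicates 1 to 4 and at 1.15, 1.48, 1.504 and 1.43 in *L3mbtl2*-KD replicates 1 to 4. The lowest *L3mbtl2*-KD sample, replicate 1, still lay above the highest control sample. The means were 0.71 ± 0.08 in control ESCs and 1.39 ± 0.16 in *L3mbtl2*-KD ESCs (SD, n = 4 each). The log2 fold change was 0.68 (standard error 0.10, 95% confidence interval 0.45 to 0.91, limma adjusted p = 0.00329), a 1.61-fold rise that stayed under the 2-fold requirement. The two-sided exact permutation test, here and below not adjusted over the subunits, gave p = 0.0286, the smallest p that 4 against 4 arrays allow. On the first slide the log2 fold change was 0.56, and on the second it was 0.81.

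*Rec8* (NM_020002) encodes the meiotic kleisin, whose stepwise cleavage releases chromosome arms and then centromeres. It was at 1.72, 1.81, 2.09 and 2.33 in control replicates 1 to 4 and at 3.11, 2.91, 3.51 and 3.94 in *L3mbtl2*-KD replicates 1 to 4. The groups did not overlap, and in both groups replicates 3 and 4, which shared the second slide, were above replicates 1 and 2. The means were 1.99 ± 0.28 and 3.37 ± 0.45 (SD, n = 4 each), a log2 fold change of 1.38 (standard error 0.23, 95% confidence interval 0.85 to 1.91, limma adjusted p = 0.00581). This is 2.60-fold, and the two-sided exact permutation test again gave p = 0.0286. On the first slide the log2 fold change was 1.24, and on the second it was 1.52.

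*Stag3* (NM_016964) encodes the STAG protein of all known meiotic cohesin rings. Its probe was well above background on 0 of the 8 arrays, so it was not tested and no fold is given. It was at -8.20, -7.75, -7.63 and -7.90 in control replicates 1 to 4 and at -7.89, -7.68, -7.88 and -7.51 in *L3mbtl2*-KD replicates 1 to 4. The groups overlapped. The dimmest probe well above background on the same array was between -5.96 and -5.25, above the *Stag3* probe on every array.

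The promoters of the 3 meiotic subunits with a probe are shown because *Smc1b* and *Rec8* rose together while *Stag3* was not detected above background. The RefSeq promoter windows (GRCm38.p6) run from 250 bases before to 50 bases after the start of each gene, and 7 of the 9 subunits have such a window here. The window of *Smc1b* is chr15:85131908-85132207 on the minus strand, that of *Rec8* is chr14:55617916-55618215 on the plus strand, and that of *Stag3* is chr5:138280259-138280558 on the plus strand. Capitals mark matches, on either strand, to GCGGGA, the core of the E2F motif, and to CACGTG, the E-box read by MAX. The matches do not overlap each other. Sequences are given from 5′ to 3′ along the strand of the gene.
Smc1b: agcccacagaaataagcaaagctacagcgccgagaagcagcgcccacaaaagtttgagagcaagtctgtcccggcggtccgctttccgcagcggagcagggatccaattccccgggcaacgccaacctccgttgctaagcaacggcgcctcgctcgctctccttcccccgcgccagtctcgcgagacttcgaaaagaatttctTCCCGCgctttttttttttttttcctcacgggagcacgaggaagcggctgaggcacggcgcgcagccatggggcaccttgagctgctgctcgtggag
Rec8: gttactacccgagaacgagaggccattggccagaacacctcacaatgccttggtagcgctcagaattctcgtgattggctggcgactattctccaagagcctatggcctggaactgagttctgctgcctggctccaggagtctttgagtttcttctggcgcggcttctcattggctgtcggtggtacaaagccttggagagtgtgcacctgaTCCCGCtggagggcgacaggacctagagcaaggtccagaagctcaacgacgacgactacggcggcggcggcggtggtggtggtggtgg
Stag3: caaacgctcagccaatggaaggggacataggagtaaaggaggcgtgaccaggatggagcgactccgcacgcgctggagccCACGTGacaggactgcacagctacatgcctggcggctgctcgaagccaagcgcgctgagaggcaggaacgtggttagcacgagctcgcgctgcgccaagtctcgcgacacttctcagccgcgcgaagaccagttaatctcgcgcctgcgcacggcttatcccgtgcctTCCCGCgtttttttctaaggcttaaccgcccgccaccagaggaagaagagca

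Of 32851 promoter windows of this length, 20% held GCGGGA, 7.15% held CACGTG and 3.98% held GGTGTGA, the T-box core read by MGA, each counted on both strands. Among the 7 subunits with a window, GCGGGA was present in 6, CACGTG in 1, *Stag3*, and GGTGTGA in 0. The first base of the GCGGGA match lay at position -47 from the start of *Smc1b*, -38 from that of *Rec8* and -2 from that of *Stag3*. Somatic subunits held the same letters, at position 40 in *Smc1a*, -15 in *Stag1*, and -116 and 30 in *Smc3*. The E-box of *Stag3* lay at position -170. GCGGGA stood in windows of subunits that rose, that did not pass and that were not detected. *Rad21* and *Stag2*, of which *Stag2* passed with a fall, had no window here and were not read. The GC share was 60% for *Smc1b*, 58.3% for *Rec8* and 61.3% for *Stag3*. The window of *Rad21l* had 29% GC, 2 CpG dinucleotides and 0 matches to the 3 motifs. Whether the annotated start of *Rad21l* is where its transcription begins was not tested, so this window may not be its promoter.

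The somatic subunits, which ESCs use in every division, were well above background on all 8 arrays. *Stag2* (NM_001077712) encodes a STAG protein of somatic rings. It was at 1.72, 1.35, 1.46 and 1.59 in control replicates 1 to 4 and at 1.22, 1.01, 1.09 and 1.09 in *L3mbtl2*-KD replicates 1 to 4. Replicate 1 was the highest sample of each group, and the groups did not overlap. The means were 1.53 ± 0.16 and 1.10 ± 0.09 (SD, n = 4 each). The log2 fold change was -0.43 (standard error 0.10, 95% confidence interval -0.66 to -0.20, limma adjusted p = 0.022), which is 1.35-fold lower, and the two-sided exact permutation test gave p = 0.0286. The change was -0.42 on the first slide and -0.44 on the second. It did not pass without the filter on dim probes (limma adjusted p = 0.0587), on the second slide alone (0.0671), without control replicate 4 (0.0577) or without *L3mbtl2*-KD replicate 2 (0.0508), 3 (0.0586) or 4 (0.0552).

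*Stag1* (NM_009282), the other STAG protein of somatic rings, was measured by 2 probes. The brighter probe was at 0.75, 0.64, 0.68 and 0.58 in control ESCs and at 0.71, 0.67, 0.71 and 0.53 in *L3mbtl2*-KD ESCs. The groups overlapped, with a log2 fold change of -0.01 (95% confidence interval -0.19 to 0.18, limma adjusted p = 0.951). The other probe gave -0.07 (95% confidence interval -0.26 to 0.12). Whether *Stag1* and *Stag2* differed in their change was not tested.

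*Smc1a* (NM_019710), the somatic counterpart of *Smc1b*, was at 4.57, 4.24, 4.67 and 4.72 in control ESCs and at 4.48, 4.32, 4.54 and 4.57 in *L3mbtl2*-KD ESCs. In both groups replicate 2 was the lowest and the groups overlapped, with a log2 fold change of -0.07 (95% confidence interval -0.35 to 0.21, limma adjusted p = 0.734). *Smc3* (NM_007790), the SMC subunit that somatic and meiotic rings share, was at 4.27, 3.91, 4.01 and 4.05 in control ESCs and at 4.14, 4.05, 3.91 and 4.0 in *L3mbtl2*-KD ESCs. Its groups overlapped as well, and its log2 fold change was -0.03 (95% confidence interval -0.26 to 0.20, limma adjusted p = 0.851). The intervals of *Smc1a*, *Smc3* and *Stag1* leave room for changes of these sizes in either direction.

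*Rad21* (NM_009009), the somatic kleisin and counterpart of *Rec8*, was at 4.11, 4.12, 4.03 and 3.87 in control replicates 1 to 4 and at 3.92, 4.05, 3.87 and 3.67 in *L3mbtl2*-KD replicates 1 to 4. The groups overlapped, but each *L3mbtl2*-KD sample was below the control sample of the same number. The log2 fold change was -0.15 (95% confidence interval -0.39 to 0.09) and did not pass (limma adjusted p = 0.352). With the replicate number as a block, the same change of -0.15 had a limma adjusted p of 0.0484. *Rad21* was the only subunit whose side of the threshold moved with the replicate block.

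**Figure D2:**
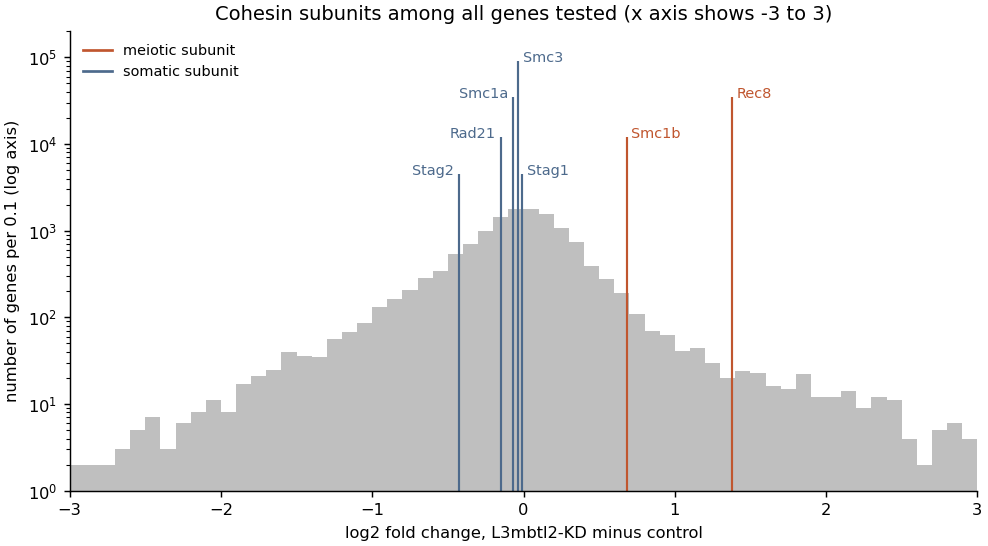
Number of genes (vertical axis, log scale) in bins of log2 fold change of 0.1 (horizontal axis) for the 13653 genes tested, with vertical lines at the 7 cohesin subunits tested; line heights differ only to separate the names. *Rec8* (1.38) and *Smc1b* (0.68) lie in the right tail, *Stag2* (-0.43) left of the centre, and the other somatic subunits between -0.15 and -0.01.

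Among the 13653 genes tested, 221 had a higher log2 fold change than *Rec8* and 613 a higher one than *Smc1b*. A lower log2 fold change than that of *Stag2* was found for 1962 genes. *Stag1*, *Smc3* and *Smc1a* lay near the middle of the distribution, with 6864, 6430 and 5794 genes below them, and 4455 genes lay below *Rad21*.

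Whether a meiotic subunit changed more than its somatic paralogue was asked within each array. Of 5 planned pairs of a meiotic and a somatic subunit, 2 had both probes tested, since *Stag3* was below background and *Rad21l* had no probe. The within-array difference of *Smc1b* and *Smc1a*, with the control mean set to 0, was 0.01, 0.38, -0.12 and -0.27 in control replicates 1 to 4 and 0.51, 1.003, 0.80 and 0.70 in *L3mbtl2*-KD replicates 1 to 4. The groups did not overlap, and the mean rose by 0.75 (1.69-fold) in favour of *Smc1b*. The difference of *Rec8* and *Rad21* was -0.35, -0.26, 0.11 and 0.50 in control ESCs and 1.23, 0.91, 1.69 and 2.31 in *L3mbtl2*-KD ESCs. It rose by 1.53 (2.89-fold), again with no overlap between the groups. The two-sided exact permutation test gave p = 0.0286 for each pair of subunits, unadjusted. It exchanged arrays freely between the groups, without regard to the replicate number. The differences reuse the *Smc1b* and *Rec8* values given above, so these p-values are not independent of those of the single genes. A rise shows unequal change of the paralogues, not that the somatic paralogue was unchanged. Between arrays of the same number, the first difference rose by 0.50, 0.62, 0.92 and 0.97 and the second by 1.58, 1.17, 1.58 and 1.81. Each number holds an array of each group, so the replicate block cannot change the mean rises of 0.75 and 1.53. On the first and the second slide, the rises were 0.56 and 0.95 for *Smc1b* against *Smc1a* and 1.37 and 1.69 for *Rec8* against *Rad21*.

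**Figure D3:**
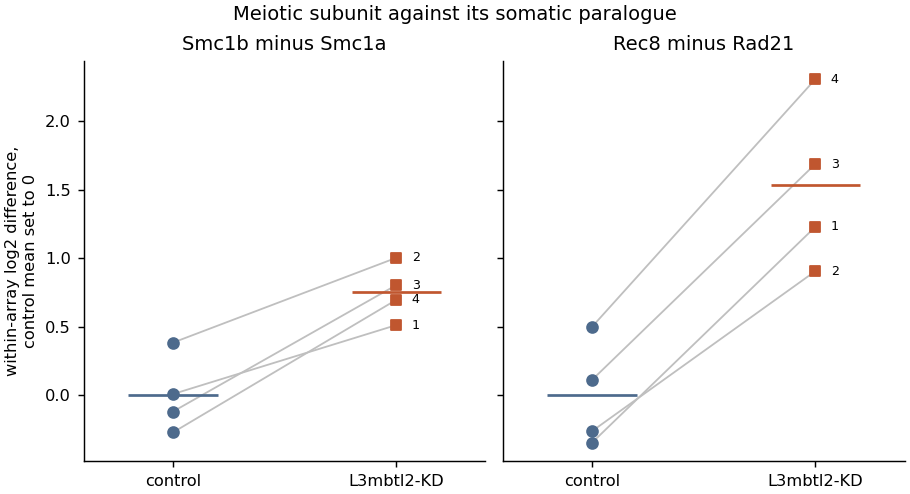
Within-array log2 difference between a meiotic subunit and its somatic paralogue, with the control mean set to 0 (vertical axis), for *Smc1b* minus *Smc1a* and *Rec8* minus *Rad21*, where points are arrays, bars are group means and grey lines join arrays of the same replicate number. All 4 lines rise in both panels, by means of 0.75 and 1.53.

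The other genes of cohesin biology were described list by list. Of 9 genes that load cohesin (*Nipbl*, *Mau2*), release or stabilise it (*Wapl*, *Pds5a*, *Pds5b*, *Cdca5*) or set the acetylation of SMC3 (*Esco1*, *Esco2*, *Hdac8*), all were tested and 0 passed in limma, and on the brightest probe of each gene 0 had an unadjusted p under 0.05 in limma or in a one-way test. The other probe of *Esco1* did in limma (0.28, unadjusted p = 0.0401, adjusted p = 0.129). Their median log2 fold change was 0.07, and values ran from -0.06 for *Mau2* to 0.30 for *Esco1*. Over all 13653 genes tested, limma gave 2306 higher and 2566 lower at an unadjusted p under 0.05. With the replicate block, *Esco1* passed (0.30, limma adjusted p = 0.0242), and without control replicate 1 the list had 1 gene that passed with a rise.

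Of 10 genes that protect cohesin (the shugoshins *Sgo1* and *Sgo2a*, and *Meikin*), open it (the separase *Espl1* and its inhibitor securin, *Pttg1*) or regulate these steps as kinases (*Plk1*, *Bub1*, *Haspin*, *Aurkb*, *Aurkc*), 9 were tested, with *Meikin* not well above background. In limma 0 of the 9 passed, and 1, *Plk1*, was higher at an unadjusted p under 0.05, as were 2306 of all 13653 genes tested. The one-way test without adjustment, quantile normalization, the slide as a block and an intensity trend each gave 1 gene that passed with a rise. The median log2 fold change was 0.06. With the replicate block 3 of these genes passed, namely *Sgo2a* (0.32, limma adjusted p = 0.00795), *Plk1* (0.29, limma adjusted p = 0.00737) and *Haspin* (0.31, limma adjusted p = 0.0147). The probes of *Pttg1* disagreed, with -0.10 for the brighter probe (limma adjusted p = 0.517) and -0.69 for the dimmer (limma adjusted p = 0.0174). *Pttg1* was the only 1 of 14 listed genes with several probes tested whose probes gave different calls, where the lists are those of cohesin and its partners, without the markers of cell types.

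The next list held 6 genes for chromatin proteins, *Ctcf*, *Ctcfl*, *Zfp143*, *Yy1*, *Adnp* and *Champ1*, whose part in cohesin loops was not examined. All were tested and 1 passed. That gene was *Ctcfl* (NM_001081387), the germ-line paralogue of *Ctcf*. It was at -3.32, -4.61, -4.68 and -4.51 in control replicates 1 to 4 and at 0.86, -0.29, 0.08 and 0.90 in *L3mbtl2*-KD replicates 1 to 4. Control replicate 1 stood above the other control samples, and all *L3mbtl2*-KD samples lay far above it. The log2 fold change was 4.67 (standard error 0.37, limma adjusted p = 0.00026), with 4.25 on the first slide and 5.09 on the second. With normexp background correction it was 3.44 (limma adjusted p = 7.9e-05). Only 4 genes had a higher log2 fold change. *Ctcf* itself, the anchor of cohesin loops, had overlapping groups and a log2 fold change of 0.01 (95% confidence interval -0.26 to 0.28, limma adjusted p = 0.967). The median of the list was 0.06, and with the replicate block *Adnp* (-0.24, limma adjusted p = 0.0157) and *Zfp143* (-0.24, limma adjusted p = 0.0316) also passed, both lower.

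**Figure D4:**
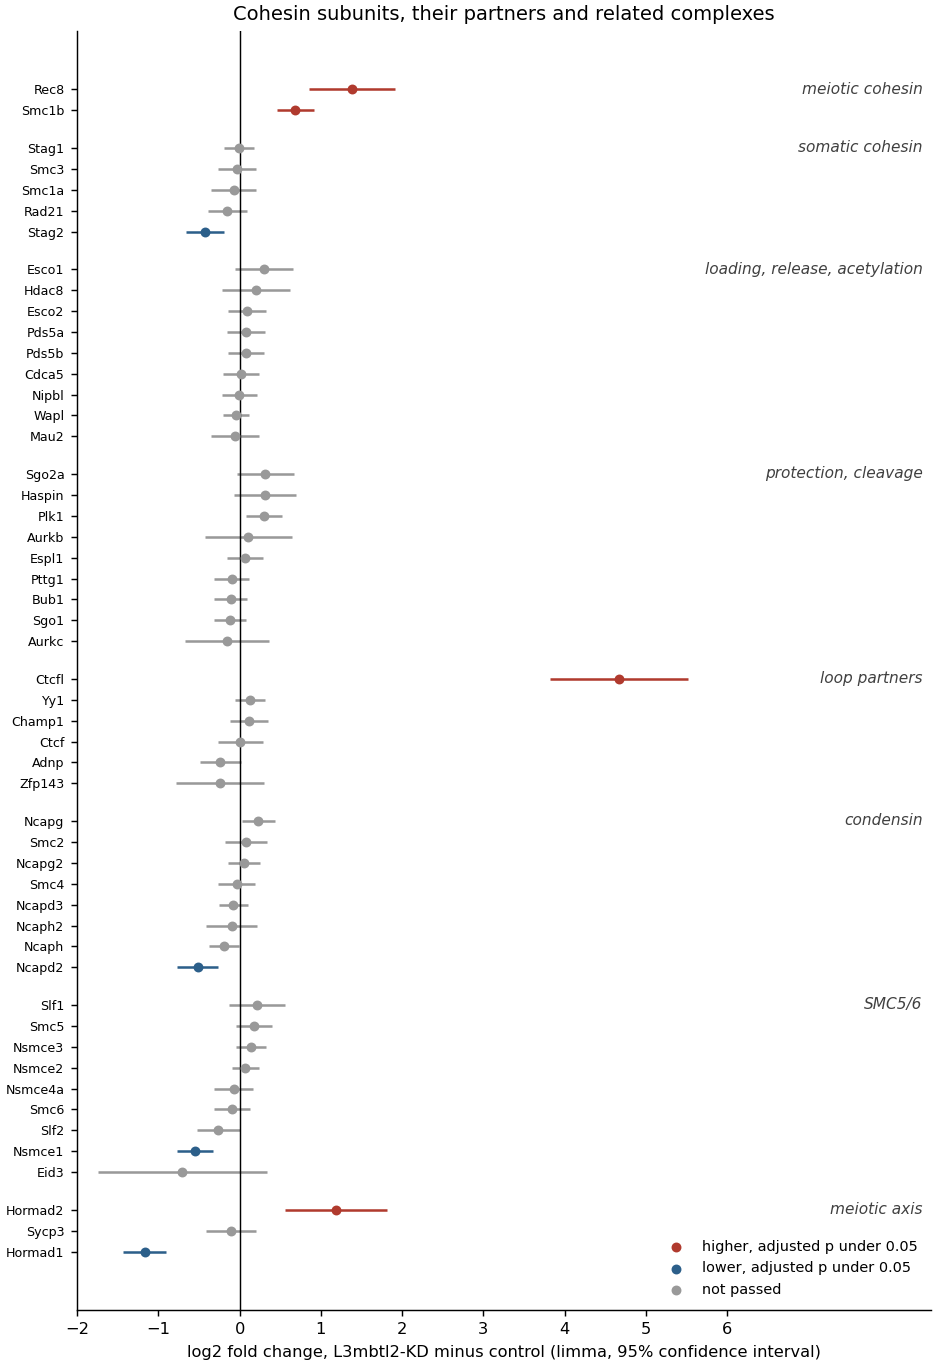
Log2 fold change, *L3mbtl2*-KD minus control (horizontal axis), of the tested genes of the cohesin lists and related complexes, with points for limma estimates and bars for 95% confidence intervals, coloured where the adjusted p was under 0.05. The genes shown that passed with a rise were *Ctcfl* (4.67), *Rec8* (1.38), *Hormad2* (1.18) and *Smc1b* (0.68), and *Hormad1* (-1.17), *Nsmce1* (-0.55), *Ncapd2* (-0.52) and *Stag2* (-0.43) passed with a fall.

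The other SMC complexes of the cell are condensin, which compacts mitotic chromosomes, and SMC5/6, which acts in DNA repair. Of 8 condensin genes tested, 0 were higher and 1 was lower. The lower gene was *Ncapd2*, a regulatory subunit of condensin I (log2 fold change -0.52, standard error of 0.11, limma adjusted p = 0.0154). Its change was -0.59 on the first slide and -0.45 on the second, where it did not pass alone (limma adjusted p = 0.0602). At an unadjusted p under 0.05, limma gave 1 condensin gene higher and 2 lower, as did the one-way test. Over all 13653 genes tested, limma gave 2306 higher and 2566 lower at that p. Without control replicate 1, 1 condensin gene passed with a rise. With the replicate block, *Ncapg* (0.23, limma adjusted p = 0.0208) and *Ncaph* (-0.19, limma adjusted p = 0.0399) passed as well, and the list median was -0.06.

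Of 9 genes of SMC5/6 and its partners, all were tested, 0 were higher and 1 was lower. It was *Nsmce1*, which encodes the RING-domain subunit (log2 fold change -0.55, standard error of 0.10, limma adjusted p = 0.00651), with -0.57 on the first slide and -0.53 on the second. At an unadjusted p under 0.05, limma gave 0 higher and 2 lower, *Nsmce1* and *Slf2* (-0.26, unadjusted p = 0.0499), and the one-way test 0 higher and 1 lower. Over all 13653 genes tested, limma gave 2306 higher and 2566 lower at that p. The median of the list was -0.07. With the slide as a block, 2 genes of this list were lower. With the replicate block, *Slf1* (0.21, limma adjusted p = 0.0252) and *Smc5* (0.17, limma adjusted p = 0.0395) passed with a rise and *Eid3* (-0.70, limma adjusted p = 0.0132) and *Slf2* (-0.26, limma adjusted p = 0.0233) with a fall.

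Meiotic cohesin carries the proteins of the chromosome axis, *Sycp2*, *Sycp3*, *Hormad1* and *Hormad2*, of which 3 were tested. *Hormad2*, a HORMA-domain protein of unsynapsed axes, was at -2.38, -2.66, -3.46 and -3.48 in control replicates 1 to 4 and at -1.49, -1.62, -2.09 and -2.05 in *L3mbtl2*-KD replicates 1 to 4. The groups did not overlap, and in both groups replicates 1 and 2 were the higher ones. Its log2 fold change was 1.18 (standard error of 0.27, limma adjusted p = 0.0206). The adjusted p of *Hormad2* was above 0.05 without control replicate 3 (0.0569), without control replicate 4 (0.0504), without *L3mbtl2*-KD replicate 1 (0.0514), without the filter on dim probes (0.052) and in the adjusted one-way test (0.0591). *Hormad1* fell by 1.17 on its brighter probe and by 0.98 on the other. *Sycp2* was well above background on 2 *L3mbtl2*-KD arrays and 0 control arrays, so it was not tested and no fold is given. It was at -6.88, -7.56, -7.48 and -7.76 in control replicates 1 to 4 and at -5.02, -5.14, -5.64 and -5.86 in *L3mbtl2*-KD replicates 1 to 4, with no overlap. Around meiotic cohesin, 1 axis gene thus passed with a rise and 1 with a fall, and the median of the 3 tested, which includes *Sycp3*, was -0.11.

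The genes whose pattern over the 8 arrays came closest to a meiotic subunit were sought among the 97 other named genes, by the root mean square difference of values centred on the control mean. For *Smc1b* they were *Loxl1* (0.266), *Cdc20* (0.267) and *Sgo2a* (0.304), all in log2 units. For *Rec8* they were *Loxl1* (0.36), *Zp3* (0.475) and *Smc1b* (0.599). This is a description of 8 arrays, and *Sgo2a* did not itself pass the threshold (log2 fold change 0.32, limma adjusted p = 0.189).

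Markers of other cells that the samples could hold moved as follows. Of 14 feeder fibroblast markers, 12 were tested, 7 were lower and 1, *Loxl1*, was higher, with a median log2 fold change of -1.21. This count and median include *Dcn* and *Col3a1*, which entered the test through the control arrays alone. The others that were lower, *Col1a1*, *Col1a2*, *Acta2*, *Thy1* and *Pdgfrb*, were well above background on all arrays of both groups. Summed over the 12 markers and expressed in units of the 75th percentile of each array, their level was 6.19, 13.7, 12.2 and 15.2 in control replicates 1 to 4 and 5.78, 5.87, 6.56 and 6.60 in *L3mbtl2*-KD replicates 1 to 4. In this sum control replicate 1 lay among the *L3mbtl2*-KD samples and the other control samples were higher, and the *L3mbtl2*-KD sample was lower in 4 of 4 pairs of the same replicate number. Again 7 feeder markers passed with a fall in the replicate block. The sum weighs each marker by the brightness of its probe and so follows *Tagln*, the brightest, which did not pass (-0.58, limma adjusted p = 0.173) and whose groups overlapped. For each of the 7 markers that were lower, every control sample lay above every *L3mbtl2*-KD sample, control replicate 1 included. In control replicate 1 *Dcn* was at -2.39 against at most -5.31 in *L3mbtl2*-KD samples, *Col3a1* at -3.89 against at most -5.82, *Col1a2* at -0.96 against at most -1.86, *Acta2* at -0.95 against at most -2.25 and *Pdgfrb* at -2.73 against at most -3.70. *Lum* and *Postn* were dim in both groups and were not tested, and the *L3mbtl2*-KD samples had neither *Dcn* nor *Col3a1* well above background. The methods name a sort for *Vasa*-positive cells for the knockdown and none for control ESCs. The part of feeder cells, and of this sort, in the changes of *Smc1b*, *Rec8* and *Stag2* was not tested.

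Of 10 markers of cycling cells, which bear on genes used in mitosis, 1, *Cdc20*, passed with a rise (log2 fold change 0.40, limma adjusted p = 0.0183) and 0 passed with a fall in limma. At an unadjusted p under 0.05, 1 of the 10 was lower in limma, as were 2566 of all 13653 genes tested. The adjusted p of *Cdc20* was 0.0569 without control replicate 3, 0.0518 without *L3mbtl2*-KD replicate 4, 0.0516 without the filter on dim probes and 0.0737 on the second slide alone. The summed level of the list was 178, 167, 158 and 172 in control ESCs and 193, 175, 171 and 198 in *L3mbtl2*-KD ESCs, with the probe of *Cdc20* the brightest. The groups overlapped, and in 4 of 4 pairs of the same replicate number the *L3mbtl2*-KD sample was the higher. Of these genes, 3 passed with a rise and 1 with a fall in the replicate block. After normexp background correction *Mki67* passed with a fall (-0.28, limma adjusted p = 0.0414), and with an intensity trend 1 gene of the list did. A dimmer probe of *Cdk1* was lower at an unadjusted p under 0.05 in limma (-0.35, adjusted p = 0.0838), and its brightest was not. ESC markers summed to 321, 326, 314 and 312 in control ESCs and to 315, 334, 302 and 326 in *L3mbtl2*-KD ESCs, also with overlap, with the probe of *Dppa5a* the brightest and with the *L3mbtl2*-KD sample higher in 2 of 4 pairs. Among ESC markers, 1 passed with a rise and 3 with a fall in the replicate block.

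Of 10 two-cell-like markers, 8 had a probe and were tested. They had a median log2 fold change of 1.71, and 5 passed with a rise. Their summed level was 120, 128, 88.2 and 90.3 in control ESCs and 146, 138, 100 and 106 in *L3mbtl2*-KD ESCs, with a probe of *Sp110* the brightest. The groups overlapped, and the *L3mbtl2*-KD sample was higher than the control sample of the same replicate number in 4 of 4 pairs, with 5 markers that passed with a rise in the replicate block too. The sum takes the brightest probe of *Sp110*, which did not pass (-0.02, limma adjusted p = 0.942), whereas its other probes tested rose with no overlap, by 1.73 (limma adjusted p = 0.00954) and 2.42 (limma adjusted p = 0.00126). The probes of *Usp17la* disagreed too, with 2.53 for the brighter (limma adjusted p = 0.00209) and 0.28 for the dimmer (limma adjusted p = 0.328). Of 10 spermatid and oocyte markers, 5 were tested and 2 passed with a rise, or 1 with only probes that were well above background on all 8 arrays. The 2 were *Zp3*, a zona pellucida gene (0.91, limma adjusted p = 0.0123), and *Spaca1*, an acrosome gene that was well above background on 4 *L3mbtl2*-KD and 0 control arrays and was at least 8.89-fold higher on its brightest probe and at least 6.73-fold on the other. After normexp background correction the fitted log2 fold change of *Spaca1* was 1.48 (2.79-fold, limma adjusted p = 0.000364), below both bounds. Its control signals were not well above background, so this is no exact fold. That alternative also added an offset and used median spot intensities, and which step moved the value was not tested. The summed level of these 5 markers was 0.642, 0.635, 0.554 and 0.511 in control ESCs and 1.08, 0.945, 1.003 and 1.14 in *L3mbtl2*-KD ESCs, with the probe of *Zp3* the brightest and no overlap. *Prm1*, *Acrv1*, *Zp1*, *Zp2* and *Bmp15* were not tested, as their probes were not well above background on every array of either group. These bounds, for values without that correction, compare the *L3mbtl2*-KD mean with a floor in control samples, for each array the larger of the *Spaca1* signal and the dimmest signal well above background. The part of these cell types, and of the sort for the *Vasa* reporter, in the rises of *Smc1b* and *Rec8* was not tested.

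**Figure D5:**
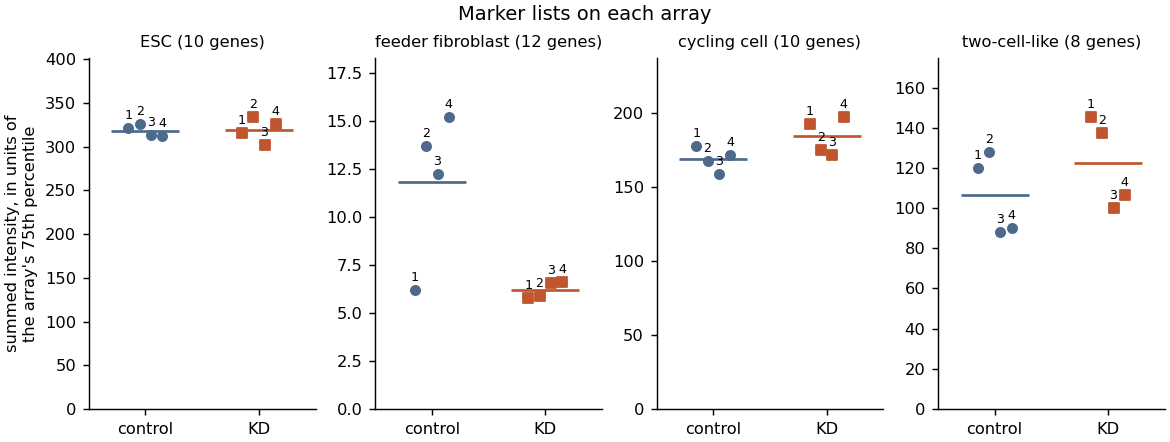
Summed intensity of marker lists on each array, in units of the 75th percentile of the array (vertical axis, starting at 0), for control (circles) and *L3mbtl2*-KD (squares) samples with replicate numbers and lines at group means. Feeder fibroblast sums were 5.78 to 6.60 in *L3mbtl2*-KD samples against 6.19 in control replicate 1 and 12.2 to 15.2 in the other control samples.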

How the data were processed

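RNA of 4 control and 4 *L3mbtl2*-KD samples was measured on 8 arrays. The authors deposited the intensity of each spot, with background already subtracted by the scanner software and not normalized between arrays. The authors also deposited a table of log2 values. It matched log2 intensity after a shift by the 75th percentile once every probe was centred on its median over arrays, with correlations of at least 0.9999 over 39242 probes. Its column medians were -0.02, 0.02, 0.05 and -0.02 in control and -0.04, 0.02, -0.06 and 0.08 in *L3mbtl2*-KD replicates 1 to 4.

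Spots that were controls or carried an outlier flag were not used, and spots of the same probe were averaged. RefSeq accessions named 26055 of 39429 probes, for 19751 genes (GRCm38.p6). The filter on dim probes kept 23525 probes, 85 of which had a missing value on some array. The fit used limma (version 3.58.1, lmFit and eBayes) under R 4.3.3, p-values were adjusted by Benjamini-Hochberg across the probes kept, and the code was tested on simulated data. The probe with the highest mean signal stands for its gene. Single genes and paralogue differences were also compared with two-sided exact permutation tests, which cannot go below 0.0571 with 3 against 4 arrays or 0.333 with 2 against 2, so paralogue differences with fewer arrays are given as values.

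All cohesin subunits are reported, and of each list up to 8 genes with an adjusted p under 0.05. Genes that passed with another setting, disagreed between probes or lay at the end of a range, and *Ctcf*, were named after their values were seen. The subunits and lists were chosen with earlier results of these data known. Promoter windows were taken from RefSeq.

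Deviations from group means correlated at 0.38 to 0.58 between samples with the same replicate number and at -0.44 to 0.25 between others, so the numbers were taken to pair the samples. The main fit and the permutation tests leave this pairing out, and the replicate block uses it. With the replicate block, the limma adjusted p was 0.00438 for *Smc1b*, 0.00123 for *Rec8*, 0.00421 for *Stag2* and 0.0484 for *Rad21*. Alternatives were normexp background correction (offset 50, on median spot intensities, as mean intensities were not in the files), quantile normalization, the deposited log2 table, no filter or a filter on all 8 arrays, replicate or slide as a block, each slide alone, an intensity trend, a one-way test for each probe as named in the figure legends, a 1.5-fold threshold, the mean of a gene's probes and leaving out each sample.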

Additional observations from a re-analysis of the deposited data

Results flagged for a closer look

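In 1 of 68 groups of 4 samples examined, 1 sample lay far from the others. Chance flags about 1 in 20 groups, or 3.4 of 68. For *Ctcfl* in control ESCs, the gap from replicate 1 (-3.32) to its nearest neighbour was 0.871 of the range of the group, and the other control samples had a mean of -4.60. No explanation was tested.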

How the results depend on the processing

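*Smc1b* and *Rec8* kept their direction under all 21 alternatives run for them, with log2 fold changes of 0.56 to 0.81 and 1.19 to 1.53. Both passed in 20 of these and not within slide 1 alone (0.56, adjusted p = 0.276, and 1.24, adjusted p = 0.0766), where 2 arrays a group remain. For every subunit tested, the filters, the blocks, the intensity trend and the one-way tests leave the fold change as it is and move only its p. The direction could not change under those alternatives. *Smc1a* (-0.17 to -0.0059) did not pass under any of the 21, nor did *Smc3* (-0.10 to 0.04) or *Stag1* (-0.04 to 0.03), whose values took both signs. *Rad21* passed with the replicate block (-0.15, adjusted p = 0.0484) and did not pass under the other 20 (-0.21 to -0.08). The block changed no other call among cohesin subunits, and among listed genes and markers it moved those given above and, of the markers, *Cdk1* (0.15), *Mki67* (-0.26), *Pcna* (0.17), *Dppa5a* (0.17), *Lin28a* (-0.29) and *Tdgf1* (-0.28).

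*Stag2* stayed lower under all 21 alternatives and did not pass under 7 of them. These were no filter on dim probes (-0.43, adjusted p = 0.0587), slide 1 (-0.42, 0.416), slide 2 (-0.44, 0.0671), and, within a range of -0.49 to -0.37 over single samples left out, without control replicate 4 (-0.41, 0.0577), *L3mbtl2*-KD replicate 2 (-0.40, 0.0508), 3 (-0.42, 0.0586) or 4 (-0.42, 0.0552). Leaving out single samples gave 0.64 to 0.76 for *Smc1b*, 1.19 to 1.53 for *Rec8* and -0.21 to -0.08 for *Rad21*. Both paralogue differences kept their direction under 16 alternatives, at 0.56 to 0.95 for *Smc1b* and *Smc1a* and 1.27 to 1.74 for *Rec8* and *Rad21*.

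Over all genes, 1277 passed with a rise and 1472 with a fall. These counts were 740 and 953 without the filter, with more probes tested, 3027 and 3255 with the replicate block, 676 and 839 within slide 2, and 2300 and 2431 in the one-way test without adjustment. Within slide 1 limma gave 0 and 0, and 897 and 1190 at an unadjusted p under 0.05. With single samples left out, 718 to 1262 rose and 907 to 1448 fell, with 718 and 907 without control replicate 3, 822 rises without *L3mbtl2*-KD replicate 3 and 774 without replicate 4. Calls by the 2-fold rule, 340 and 438, were 194 and 159 after normexp background correction, whose cause was not tested, 290 falls with probes above background on all 8 arrays, 0 and 0 within slide 1, and 700 and 1014 at 1.5-fold, as a lower threshold must give more. Signal over background limits *Stag3*, which could not be tested.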
